A study of Mus musculus with 2 samples.

Results

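Muscle fibre nuclei of the day 1 fracture hematoma were selected on the share of their RNA that came from 6 genes of skeletal muscle, Ttn, Neb, Ckm, Myh1, Myh4 and Acta1. A nucleus was chosen where it held 200 to 5000 genes, mitochondrial genes took under 0.5% and ribosomal protein genes under 2.5% of its unique molecular identifiers (UMIs, the count of distinct RNA molecules), and the 6 genes took at least 8% of its UMIs. Of the 48987 barcodes in the day 1 library, 2405 passed the filters on genes, mitochondrial and ribosomal UMIs, and 510 of these reached the 8% share (21.2%, Clopper-Pearson 95% interval 19.6 to 22.9%). The 1895 other filtered nuclei and the 43464 barcodes with under 200 genes, called shallow barcodes here, were set beside them.

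Both libraries came from injured tibias of mice labelled C57BL6, as periosteum with hematoma or callus pooled from 3 or 4 animals, with nuclei extracted mechanically and sorted on a DNA dye. The day 1 library followed an open, non-stabilized tibial fracture. The other, taken 5 days after musculoskeletal traumatic injury (MTI), in which the muscles beside the fracture were also compressed, was used only to apply the same rule within that library. With 1 library per condition there is no replicate check and no test, day and injury cannot be told apart, and all intervals given cover counting error only. The study's methods state that cells of myogenic identity were removed from its own analysis, while the deposited matrix still holds their barcodes.

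A skeletal muscle fibre is a single cell with many nuclei, each of which transcribes genes of the contractile apparatus for the cytoplasm around it. Titin (Ttn) and nebulin (Neb) are giant filament proteins with very long genes, and single-nucleus libraries that count intronic reads catch their unspliced RNA. Adult fast fibres differ by their myosin heavy chain: Myh4 marks the fastest type, Myh1 an intermediate type and Myh2 a more oxidative fast type, while Myh7 marks slow fibres.

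The chosen nuclei were shallow. They held a median of 476 UMIs (range 259 to 8338) and 282 genes, against a median of 395 UMIs in the other filtered nuclei and 148 in the shallow barcodes. Mitochondrial genes took a median of 0.173% of their UMIs, 0.248% in the other nuclei and 0.629% in the shallow barcodes. The ribosomal limit removed no nucleus that the rest of the rule chose, since 510 were also chosen without it. Their highest ribosomal share was 1.05%. Doublets were not called, and 30 of the 510 nuclei held 1000 UMIs or more. The 2 libraries shared 33 cell barcodes, and these fell unevenly. They made up 14 of the 28 nuclei that the rule chose in the MTI library, 14 of the 510 chosen here (2.75%) and 1 of the 1895 other nuclei. Of the 14 here, 13 were also among the 28 of the MTI library, with a median of 563 UMIs in this library and 603 in that one, and 10 of the 14 had a six-gene share of 20% or more. Without the shared barcodes, 388 in place of 416 genes were called higher than in the other nuclei in the comparison described further on, and the ratio of Myh2 was 3.52 in place of 5.65, while those of Dmd and Ryr1 were 2.36 and 2.81 in place of 2.36 and 2.83. The source of the shared barcodes was not tested.

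The share of the 6 genes ran without a gap through the threshold. It had a median of 10.7% and a highest value of 40.5% in the chosen nuclei. Pooled over nuclei it was 12.1%, against 3.21% in the other filtered nuclei, 4.20% in the shallow barcodes and 4.15% over all barcodes. Just inside the threshold, 58 nuclei had a share of 8 to 8.5%, with a median of 36 UMIs of the 6 genes among 432. Just outside it, 82 nuclei had a share of 7.5 to 8%, with a median of 32 such UMIs among 416.

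**Figure D1:**
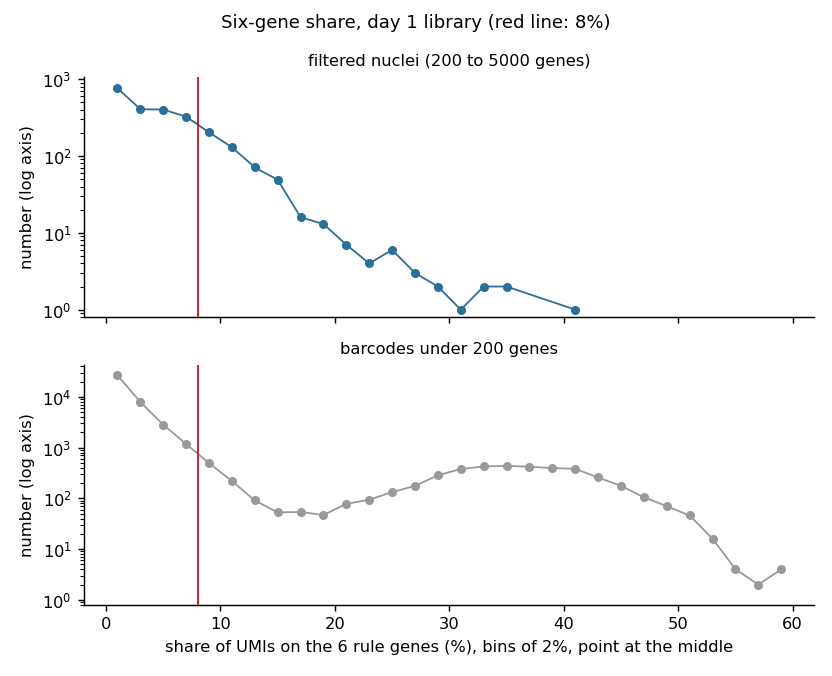
Number of filtered nuclei (top) and of barcodes under 200 genes (bottom) by share of UMIs on the 6 genes, in bins of 2%, on log axes, with empty bins left out and the 8% threshold as a red line. The filtered nuclei thinned out through 8% up to 40.5%, whereas the shallow barcodes had a second peak above 20%, where 3888 of them lay.

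Titin carried the choice. Of the UMIs of the 6 genes, 84.8% came from Ttn (30669 UMIs) and 11.6% from Neb (4187 UMIs). Myh1 gave 737 UMIs, Myh4 396, the skeletal actin gene Acta1 110 and the muscle creatine kinase gene Ckm 69. These counts were not divided by gene length and describe capture, not an order of expression. Within a nucleus, Ttn had median 46, range 20 to 808 UMIs, Neb median 6, range 0 to 94 and Myh1 median 1, range 0 to 21. Other rules left out a pair of genes and set the threshold to the same multiple of the share of the remaining 4 over all barcodes, so that both the genes and the threshold changed. Without Ckm and Acta1, at 7.91%, 516 nuclei were chosen, of which 505 were among the 510, and without Myh1 and Myh4, at 7.75%, 517, of which 496 were. Without Ttn and Neb, the threshold fell to 0.346%, and 460 nuclei were chosen, of which 234 were among the 510.

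The marker genes Ttn, Neb, Myh4 and Myh1 were present, which follows from the choice, and so were muscle genes that the rule did not use. Because the nuclei were chosen on muscle RNA, the levels of other muscle genes in the same nuclei are a description. Levels are given as CPM, UMIs scaled to a total of 1000000 UMIs outside the 6 genes. A gene was called higher at a ratio of at least 2 and lower at a ratio of at most 0.5. Over the other filtered nuclei, 8413 genes were measured (at least 20 UMIs in both groups together), of which 416 (4.94%) were higher and 1747 (20.8%) lower, with a median ratio of 0.876. A gene with 0 to 3 UMIs in the chosen nuclei reached the minimum of 20 only through the other nuclei and had to have a ratio under 1 over them, so counts of lower genes below hold such genes, and their ratios are given as values only. Over the shallow barcodes, 4196 genes were measured, of which 424 (10.1%) were higher and 430 (10.2%) lower, with a median ratio of 1.10. The minimum was stricter in this comparison, and some genes with over 20 UMIs in both groups together were not counted as measured. A gene with 20 UMIs or more in the chosen nuclei met either minimum through them alone, so counts of higher genes below hold such genes. Scaling by the median of ratios shifted the first comparison by a log2 of 0.34, which gave 126 higher and 2648 lower genes, and the second by a log2 of 0.42, which gave 138 and 1071.

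Genes of the contractile apparatus outside the rule stood higher as a group. Of 38 such genes, 37 were measured over the other nuclei, of which 19 were higher and 0 lower, with a median ratio of 2.06. Against the shallow barcodes, 36 were measured, 20 higher and 0 lower, with a median ratio of 2.09. Among all genes measured, 4.94% were higher in the first comparison and 10.1% in the second. Without the shared barcodes these medians were 2.00 and 2.12. Tnnt3, the fast troponin T, stood at 2316 CPM in the chosen nuclei (607 UMIs), 815 in the other nuclei and 607 in the shallow barcodes. Its ratios were 2.84 (2.55 to 3.17) and 3.82 (3.50 to 4.16). Mybpc1, a myosin-binding protein of the thick filament, stood at 3.07 times its level in other nuclei, and Cmya5, a large muscle scaffold protein, at 2.80 times.

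Xirp2, an actin-binding protein of muscle attachment sites, was called in neither comparison. The gene stood at 1610.5 CPM in the chosen nuclei (422 UMIs) and 1793 in the other nuclei, a ratio of 0.898 (0.805 to 1.00), and its ratio over the shallow barcodes was 1.67 (1.51 to 1.84). No chosen nucleus held more than 9 Xirp2 UMIs, whereas the highest count in another nucleus was 106. In 13 of the other nuclei Xirp2 had at least 15 UMIs, and these held 411 of its 1569 UMIs there. As no chosen nucleus reached 15, leaving them out could only raise the ratio over other nuclei, which was then 1.20 (1.07 to 1.34). The related Xirp1 had a ratio of 1.02 on 15 UMIs.

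Genes of calcium handling and excitation were higher as well. Of 23 listed genes, 22 were measured over other nuclei, with 13 higher and 1 lower (median ratio 2.11), and 21 over the shallow barcodes, with 13 higher and 0 lower (median ratio 2.46). Among all genes measured, 4.94% and 10.1% were higher in these comparisons. Trdn, which anchors the calcium release complex, stood at 3877 CPM in the chosen nuclei and 1485 in the others (ratio 2.61, 2.40 to 2.84). Ryr1, the calcium release channel, stood at 2668 against 944 (ratio 2.83, 2.55 to 3.13). Scn4a, the sodium channel of the muscle action potential, had 73 UMIs and the largest ratio of the list over the shallow barcodes, 5.61 (4.29 to 7.25). The calcium pump gene Atp2a1 stayed under the fold used, with a ratio of 1.87 over other nuclei. The gene counted as lower was Casq2, a calcium-binding protein, which reached the minimum only through the other nuclei, with 3 UMIs and a ratio of 0.417 (0.0805 to 1.37).

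Dmd, the dystrophin gene, was the best sampled protein-coding gene outside the rule. It gave 3283 UMIs (median 5, range 0 to 111 per nucleus) and stood at 12529 CPM against 5315 in the other nuclei (ratio 2.36, 2.25 to 2.47) and 4339 in the shallow barcodes (ratio 2.89, 2.78 to 2.99). Other genes of the fibre membrane varied. The ratio over other nuclei was 2.03 for the membrane repair gene Dysf, 1.79 for Syne1, which ties nuclei to the cytoskeleton, and 1.27 for the sarcoglycan gene Sgcd. All 19 genes of this list were measured over other nuclei, with 5 higher and 1 lower, and the lower one was Sntb1, a syntrophin, with 7 UMIs and a ratio of 0.249. Set against the shallow barcodes, 8 of 17 were higher and 1 lower. Among all genes measured, 4.94% were higher and 20.8% lower over other nuclei, and 10.1% and 10.2% over the shallow barcodes. Synm, an intermediate filament gene, had the highest ratio of the list over other nuclei, 7.91 (4.53 to 14.3), on 45 UMIs in 42 nuclei.

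Metabolic genes were mixed. For the counts in this paragraph, the shares among all genes measured were 4.94% higher and 20.8% lower over other nuclei. Over the shallow barcodes they were 10.1% and 10.2%. Of 28 glycogen and energy genes, 24 were measured over other nuclei, with 7 higher and 0 lower (median ratio 1.55), and 21 over the shallow barcodes, with 9 higher and 0 lower. The ratio over other nuclei was 2.45 for Phka1, a subunit of phosphorylase kinase, and 2.83 for Ppp1r3a, which targets a phosphatase to glycogen. The branching enzyme gene Gbe1, the best sampled of the list with 217 UMIs, had a ratio of 1.78, under the fold used. Of 16 slow and oxidative fibre genes, 9 were measured over other nuclei, with 3 higher (Myh2, Atp2a2 and Mb) and 0 lower. The call of Atp2a2, a calcium pump gene of slow fibres, rested on the 28 chosen nuclei with a share of 20% or more, since its ratio was 2.73 with them and 1.58 without them, and 1.80 without the shared barcodes. Over the shallow barcodes 0 of 7 were higher and 0 lower, with a median ratio of 1.04.

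**Figure D2:**
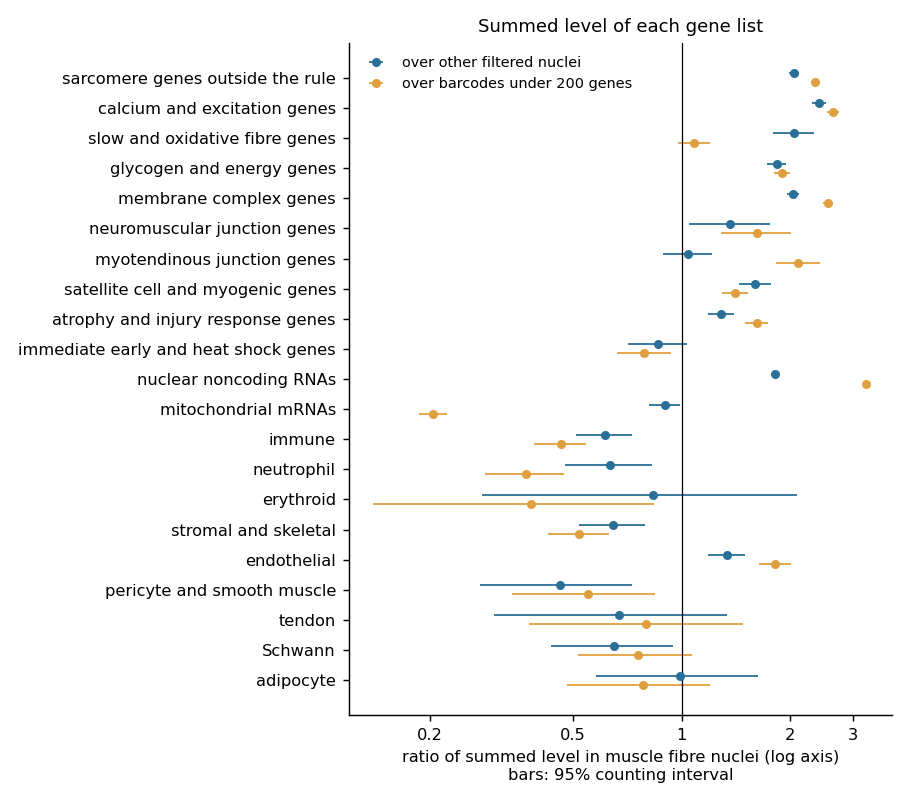
Ratio of the summed level of each gene list in the 510 muscle fibre nuclei to that in the other filtered nuclei (blue) and in the barcodes under 200 genes (orange), on a log axis with 95% counting intervals as bars. Sarcomere genes lay at 2.05 and 2.35 and calcium genes at 2.40 and 2.63, while immune genes lay at 0.611 and 0.461 and mitochondrial mRNAs at 0.898 and 0.204. The limit on mitochondrial UMIs, which the shallow barcodes did not have to pass, holds the last ratio down.

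Few genes linked to muscle wasting were called. Fbxo32 and Trim63 encode ubiquitin ligases known from atrophy. Fbxo32 stood at 752 CPM in the chosen nuclei against 309.7 in the other nuclei, a ratio of 2.43 (2.01 to 2.93), while Trim63 stood at 370.2 against 410.3, a ratio of 0.902 (0.713 to 1.13). Of 22 listed atrophy and injury genes, 19 were measured over other nuclei, with 1 higher, Fbxo32, and 0 lower, a share of higher calls near the 4.94% of all genes measured. Over the shallow barcodes 2 of 15 were higher, Fbxo32 and the filamin gene Flnc, and 0 lower. This share of higher calls is near the 10.1% of all genes measured there. Runx1, a transcription factor raised in denervated muscle, had a ratio of 1.08 over other nuclei. Of 15 immediate early and heat shock genes, 9 were measured, with 0 higher and 3 lower, against 20.8% lower among all genes measured. Those lower were the transcription factor genes Junb (12 UMIs, ratio 0.385, 0.193 to 0.702), Atf3 (11 UMIs, ratio 0.459, 0.220 to 0.866) and Myc, which reached the minimum only through the other nuclei (2 UMIs, ratio 0.239, 0.0275 to 0.946).

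Marks of specialised fibre regions and of muscle stem cells were thin. Musk, the kinase that organises the neuromuscular junction, had 33 UMIs and a ratio of 1.38 (0.889 to 2.09) over other nuclei and 2.14 over the shallow barcodes. Of 13 junction genes, 5 were measured, with 2 higher, against 4.94% of all genes measured. These were Rapsn and Dok7, both of which cluster the receptor, on 9 and 12 UMIs. Under the stricter minimum over the shallow barcodes, just 2 were measured. Both were higher, Musk and the receptor subunit gene Chrnb1 (2.68), and the other genes of the list were not assessed there. The receptor subunit genes Chrna1, Chrnd and Chrng had 0 UMIs, and a count of 0, here and below taken to allow up to 3, allows up to 11.4 CPM. All 4 myotendinous junction genes were measured, with 0 higher and 0 lower over other nuclei, and the best sampled, Ankrd1, an ankyrin repeat protein that responds to stretch, had 164 UMIs and a ratio of 1.04. Of the 4, 2 were higher over the shallow barcodes, Ankrd1 (2.31) and the metalloproteinase gene Adamts20 on 33 UMIs. Among all genes measured over the shallow barcodes, 10.1% were higher. The stem cell gene Pax7 had 6 UMIs. Of 20 satellite cell and myogenic genes, 10 were measured, with 2 higher and 2 lower, against 4.94% higher and 20.8% lower among all genes measured. The higher ones were Mef2c, a transcription factor of muscle (322 UMIs, ratio 2.24), and Myf6, the myogenic factor retained in adult fibres (33 UMIs, ratio 2.00). The lower ones, Calcr and Megf10, both known from satellite cells, had 1 UMI and 0 UMIs, so that they passed the minimum only through the other nuclei. Over the shallow barcodes 1 of 7 was higher, Myf6 (2.14), and 0 lower, against 10.1% and 10.2% among all genes measured there.

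The largest ratios of single genes belonged partly to genes outside the lists. Over the other nuclei, among genes with at least 50 UMIs in both groups together, they were those of Zfp949, a zinc finger gene (8.97, 4.95 to 17.1), Synm, Myh2 (5.65, 4.15 to 7.74), Asb2, an adaptor of a ubiquitin ligase (4.13, 3.02 to 5.66), Smtnl2 (3.87) and Rnpc3, a protein of the minor spliceosome (3.78). Without the 28 nuclei with a share of 20% or more, Zfp949 (3.70) and Myh2 (3.23) ranked below Asb2 (4.17) and Smtnl2 (3.94). Over the shallow barcodes, among genes with at least 20 UMIs in the chosen nuclei, the largest ratios were those of Klhl38 (8.43, 5.57 to 12.5), Scn4a, Ankrd23, a titin-binding ankyrin repeat protein (5.53, 4.85 to 6.30), Gm28653 (5.52) and Col7a1 (5.48). This minimum was met through the chosen nuclei, where these genes are high, so that the ratios are values only. Of the 4194 genes measured in both comparisons, 273 were higher over other nuclei, 424 over the shallow barcodes and 161 in both. The comparisons share the chosen nuclei, so this overlap is a count only.

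Among genes with at least 50 UMIs in both groups together, the smallest ratios over other nuclei were those of genes nearly absent from the chosen nuclei, which reached this minimum through the other nuclei, so that the ratios are values only. Cacnb2, a calcium channel subunit, had 1 UMI against 105 in the other nuclei, a ratio of 0.0318 (0.000798 to 0.181), and the cation channel gene Trpc4 had 1 against 63, a ratio of 0.0530 (0.00132 to 0.306). Among genes with at least 500 UMIs in the shallow barcodes, the smallest over these were those of Spdye4a (0.0367), Cacnb2 (0.0477) and Rubcnl (0.137). Further small ratios included mt-Co2 (0.151), which the limit on mitochondrial UMIs fixes, and the inflammatory genes Cxcl3 (5 UMIs, 0.173) and Lgals3 (4 UMIs, 0.188).

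Malat1 gave the most UMIs of any gene outside the rule. Malat1, a long noncoding RNA kept in the nucleus, had median 46, range 3 to 1134 UMIs per nucleus and stood at 127977 CPM, against 69754 in the other nuclei (ratio 1.83, 1.81 to 1.86) and 38018 in the shallow barcodes (ratio 3.37). Neat1, another such RNA, had ratios of 1.54 and 2.00. Of 8 listed nuclear noncoding RNAs, 5 were measured over other nuclei, with 0 higher and 0 lower, a median ratio of 1.29 and a lowest of 0.527. Over the shallow barcodes 2 of 4 were higher, Malat1 and Neat1, against 10.1% of all genes measured. By six-gene share, Malat1 stood at 29087 CPM under 2%, 108755 at 6 to 8% and 122983 at 8 to 10%. The predicted genes Gm10800 and Gm10801, whose reads may be shared between similar copies, had ratios of 0.259 and 0.264 over other nuclei. Together they took over 5% of the UMIs in 25 chosen nuclei (4.90%) and in 551 of the others (29.1%). Without such nuclei in either group, 208 genes were called higher and the sarcomere median was 1.69.

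Markers of other cell types were present at low levels, and their part in the results was not tested. The 12 immune genes summed to 561 CPM (147 UMIs, most from Dock2, 1 gene at 0), against 918 in the other nuclei (ratio 0.611, 0.509 to 0.730) and 1217 in the shallow barcodes (ratio 0.461, 0.389 to 0.543). The 8 neutrophil genes, led by S100a9, summed to 244 CPM, a ratio of 0.630 over other nuclei, and the 21 stromal and skeletal genes, led by Col3a1, to 408, a ratio of 0.644. The endothelial list had a ratio of 1.33, but 372 of its 407 UMIs came from Cdh13, while Pecam1 had 14 and Emcn 0. The pericyte and smooth muscle list had 21 UMIs, the Schwann list 33, the adipocyte list 21, the tendon list 10, the erythroid list 6 and the osteoclast list 0.

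Levels of sarcomere and calcium genes followed the six-gene share on both sides of 8%. Sarcomere genes summed to 4388 CPM in nuclei with a share under 2%, 10648 at 2 to 4%, 17832 at 6 to 8%, 18263 at 8 to 10% and 24682 at 15 to 20%. The intervals of the bins on either side of the threshold overlapped (17168 to 18516 and 17416 to 19140.1). Calcium genes summed to 2269 CPM under 2%, 9619 at 6 to 8% and 10089 at 8 to 10%. The nuclei below the threshold thus held muscle RNA too, and against only those under 4% the sarcomere median was 3.01 and 704 genes were called higher.

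Membrane complex genes summed to 4825 CPM under 2%, 14652 at 6 to 8% and 15521 at 8 to 10%. Some lists and genes followed another course. Atrophy and injury genes summed to 1365 CPM under 2%, 3389 at 4 to 6%, 3558 at 8 to 10% and 2574 at 15 to 20%, and myotendinous junction genes to 426, 1397, 1036 and 568. Mitochondrial mRNAs stood at 2094 under 2% and 2125 at 8 to 10%. Xirp2 stood at 2907 CPM at 4 to 6%, 2279.9 (2046 to 2533) at 6 to 8%, 1727 (1473 to 2011) at 8 to 10% and 1500.0 (1296 to 1727) at 10 to 15%. At the ends of the range it stood at 849 under 2% and 2234 (1432 to 3324) at 20% and over. Without the 13 nuclei of at least 15 Xirp2 UMIs, which all lay below the threshold so that leaving them out could only bring the levels there down, it stood at 1870.3 at 4 to 6% and 1963 (1745 to 2201) at 6 to 8%. Trim63 stood at 630.1 at 4 to 6% (563 without the 13 nuclei, 457 to 687) and 371 at 10 to 15% (274 to 492), whereas Fbxo32 stood at 380.4 and 889 in these bins. At 20% and over, Trim63 stood at 186 (2 UMIs, 22.5 to 673) and Fbxo32 at 279 (3 UMIs, 57.6 to 816). The immune list stood at 964 under 2% and 541 at 10 to 15%.

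**Figure D3:**
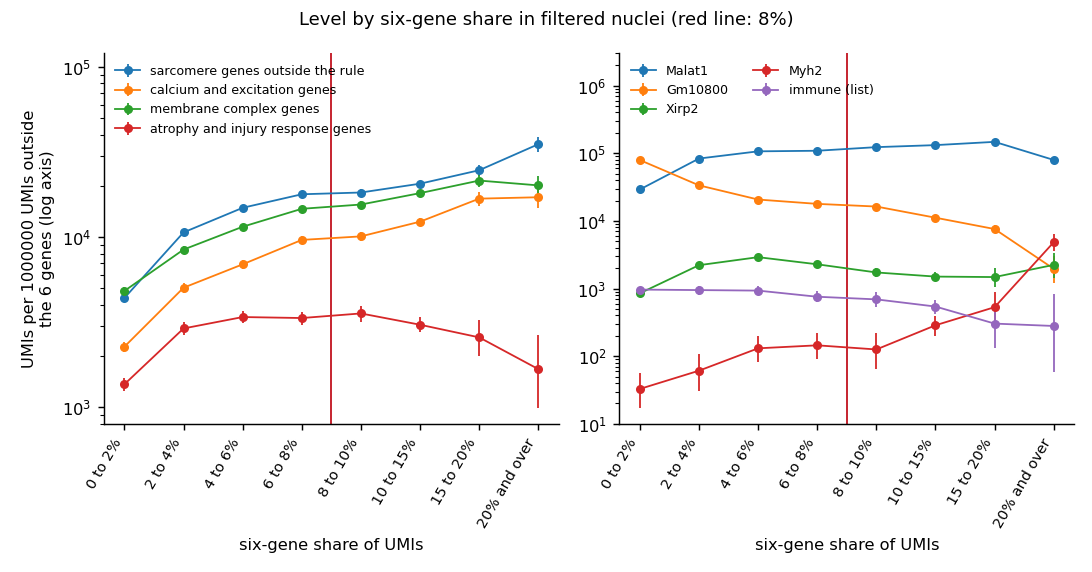
Levels of gene lists (left) and of single genes and the immune list (right) by six-gene share in all filtered nuclei, in CPM on log axes, with exact Poisson intervals as bars. Sarcomere genes went from 17832 to 18263 CPM across the 8% line (red), and Myh2 reached 4841 at 20% and over.

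A few nuclei at the top of the range stood apart. In 28 of the 510 nuclei the 6 genes took 20% of UMIs or more. No mitochondrial UMI was found in 85.7% of these, against 36.7% of the 482 nuclei at 8 to 20%, and 20 of the 28 had no Neat1 UMI, against 75 of the 482. They held 0.214 Neb UMIs per Ttn UMI (0.196 to 0.233), against 0.128 (0.124 to 0.133) in the 482. Neb and Ttn are rule genes, and the 28 were set apart on the share of the rule genes, so this ratio is a description only. Myh2 stood at 4841 CPM in the 28 nuclei and 251 in the 482, and the 28 held 52 of the 115 Myh2 UMIs. Zfp949 stood at 2420.4 against 67.6, and Mir133a-1hg, the host gene of a muscle microRNA, at 2327 against 115. Malat1 was lower, at 79501 against 130049. The embryonic and perinatal myosin genes Myh3 and Myh8 had 5 and 6 UMIs in the 28 and 4 and 2 in the 482.

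Of the 28 nuclei, 10 had barcodes that the MTI library also held, and these 10 had 35 of the Myh2 UMIs, 13 of the Zfp949 UMIs and 19 of the Mir133a-1hg UMIs of the 28, against 17, 13 and 6 in the other 18. All of the Myh8 UMIs of the 28 lay in the 10. Myh2 stood at 8698 CPM in the 10 and 2531 in the other 18 (1474 to 4052), against 251 in the 482, and Zfp949 at 3231 and 1935. Neat1 had 0 UMIs in the 10 and stood at 6698 CPM in the 18, and Malat1 stood at 43738 and 100923.

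Without the 28 nuclei the ratio over other nuclei was 3.70 for Zfp949, 3.23 for Myh2, 2.32 for Rnpc3 and 1.87 for Mir133a-1hg, in place of 8.97, 5.65, 3.78 and 3.34. For Dmd it was 2.34 and for Ryr1 2.79. The ratio of Myh2 over the shallow barcodes was 0.914 with the 28 nuclei and 0.522 without them. Without the shared barcodes alone it was 0.562.

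The shallow barcodes held a larger set of high share. In 3888 of them (8.95%, 8.68 to 9.22%) the 6 genes took 20% or more, with a median of 97 UMIs and 58 genes and no mitochondrial UMI in 99.4%. They held 6.22% of the UMIs of the shallow barcodes and 51.4% of their Ttn UMIs. Like the 28 nuclei, they had high Myh2 (9682 CPM), Zfp949 (2626) and Mir133a-1hg (3761), and 0.275 Neb UMIs per Ttn UMI. The last ratio is again one of rule genes and a description only. Neat1 stood at 114 CPM in these barcodes and at 4189 in the 28 nuclei. Whether the 28 are whole nuclei was not tested.

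**Figure D4:**
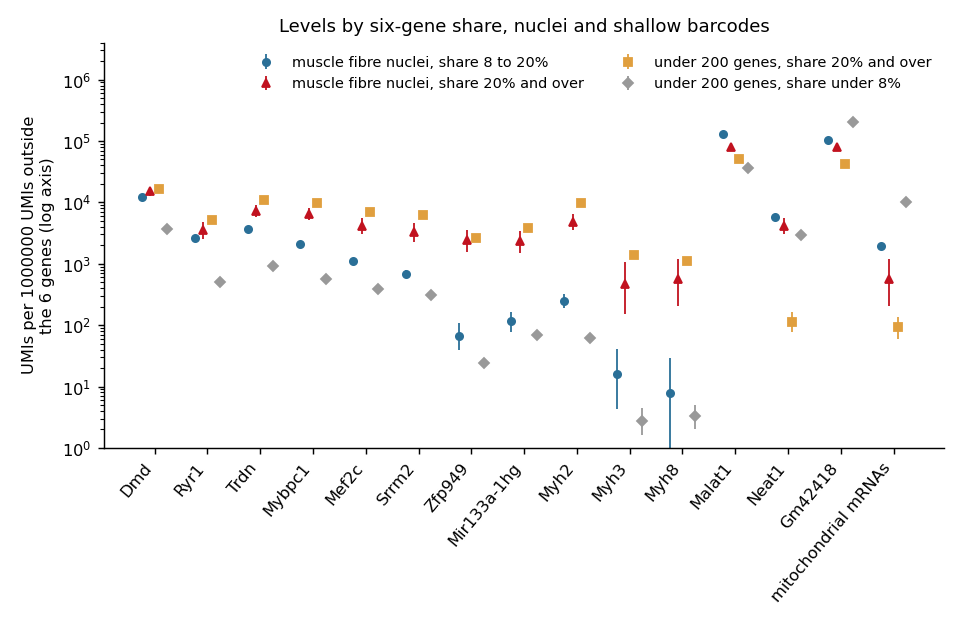
Levels of muscle genes, noncoding RNAs, Gm42418 and summed mitochondrial mRNAs, in CPM on a log axis with exact Poisson intervals, in muscle fibre nuclei with a six-gene share of 8 to 20% (482) and of 20% and over (28) and in barcodes under 200 genes with a share of 20% and over (3888) and under 8% (38615). Myh2 stood at 251, 4841, 9682 and 62.1 CPM in these sets, and Neat1 at 5822, 4189, 114 and 2956.

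Against only the 38615 shallow barcodes with a share under 8%, 562 of 4213 genes (13.3%) were higher and 505 (12%) lower. Of the sarcomere genes, 30 of 36 were then higher and 0 lower, with a median ratio of 2.66. The ratio of Myh2 was 7.07 in place of 0.914, and that of Ryr1 5.34 in place of 3.66.

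Long genes took a similar share of UMIs in all groups. Genes of at least 100 kb outside the rule took 32.1% of their UMIs, 33.2% in the other nuclei and 31.0% in the shallow barcodes. In the GENCODE annotation of GRCm38, Ttn spans 279 kb and Neb 242 kb of chromosome 2, and Dmd 2257 kb of chromosome X.

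Fast fibre types could be read in a minority of the nuclei. Of the 510, 172 held at least 3 UMIs of the adult myosin heavy chains, and a nucleus was assigned to a chain that took at least 66.7% of them. Among the 172, 93 were assigned to Myh1 (54.1%, 46.3 to 61.7%), 45 to Myh4 (26.2%, 19.8 to 33.4%), 14 to Myh2 (8.14%) and 0 to Myh7, and a count of 0 allows 3 nuclei or a share of up to 1.74%, while 20 were mixed. Of the 14 Myh2 nuclei, 5 were among the 28 nuclei of 20% and over, as were 10 of the mixed ones. In the 61 nuclei with at least 5 UMIs of Myh1 and Myh4 together, 28 held only Myh1, 14 only Myh4 and 19 both. Without the barcodes found in both libraries, the classes took 57.1% (Myh1), 28.0% (Myh4) and 5.59% (Myh2). Since Myh1 and Myh4 are rule genes and the chains define the classes, these shares are a description. The shallow barcodes also held Myh1 at 967, Myh2 at 480 and Myh4 at 374 CPM. The part of RNA from outside the nucleus in the classes was not tested.

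**Figure D5:**
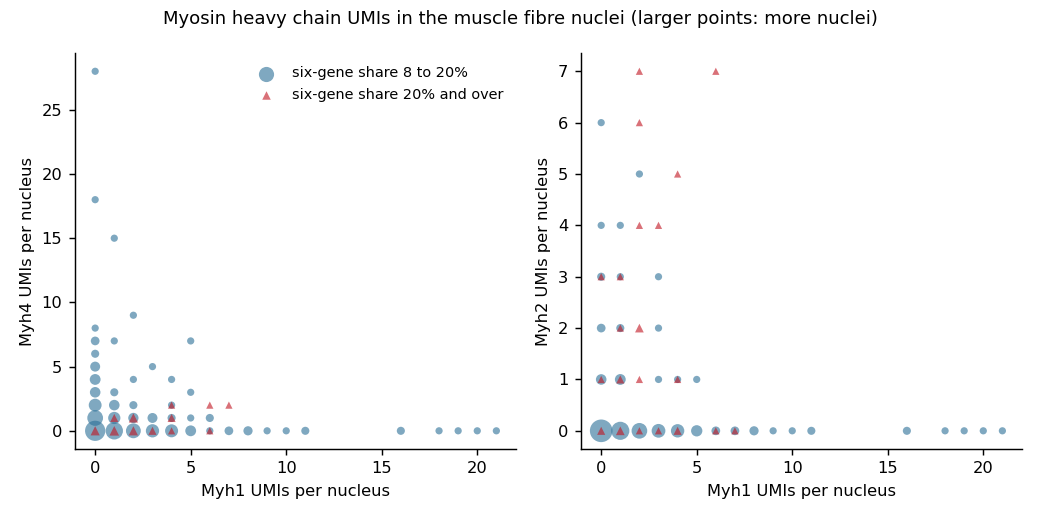
Myh4 (left) and Myh2 (right) against Myh1 UMIs per nucleus in the 510 muscle fibre nuclei, with larger points for more nuclei, circles for a six-gene share of 8 to 20% and triangles for 20% and over. Many points lie along the axes of the left panel, and triangles reach the highest Myh2 counts.

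Between the Myh4 and Myh1 nuclei, the intervals of the ratios lay away from 1 for some genes and spanned 1 for others. Of 622 genes with at least 20 UMIs in both classes together, 23 had a ratio of at least 2 in the Myh4 nuclei and 61 a ratio of at most 0.5. Genes with 0 to 3 UMIs in the Myh4 nuclei, such as Adk (1 against 23), passed this minimum only through the Myh1 nuclei. Their ratios had to be under 1, and the 61 hold such genes. The interval lay above 1 for 15 of the 622 genes and below 1 for 38. Ankrd1 had a ratio of 2.64 (1.53 to 4.59), and Mybpc1 a ratio of 0.521 (0.363 to 0.732). Of the Myh1 nuclei 6, and of the Myh4 nuclei 0, had a six-gene share of 20% or more. Mybpc1 stood at 6516 CPM in muscle fibre nuclei of that share and at 2077 in those of 8 to 20%. Esrrg, a nuclear receptor of oxidative metabolism, had 3 UMIs in the Myh4 nuclei and 31 in the Myh1 nuclei (ratio 0.216, 0.0422 to 0.692). It passed the minimum only through the Myh1 nuclei, so that its ratio is a value only. Trdn had a ratio of 0.887 (0.714 to 1.10) and Tnnt3 one of 0.897 (0.683 to 1.17).

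The fast myosin genes lie side by side on chromosome 11, and the 250 bases before their starts are shown because the myosin chains divide the nuclei into classes. They are taken from RefSeq (GRCm38.p6, plus strand, chr11:67199852-67200101 for Myh1, chr11:67170777-67171026 for Myh2 and chr11:67237562-67237811 for Myh4), 5′ to 3′, and capitals mark TATAAA, the E-box CANNTG that myogenic factors bind and the MEF2 motif, searched on both strands:
Myh1: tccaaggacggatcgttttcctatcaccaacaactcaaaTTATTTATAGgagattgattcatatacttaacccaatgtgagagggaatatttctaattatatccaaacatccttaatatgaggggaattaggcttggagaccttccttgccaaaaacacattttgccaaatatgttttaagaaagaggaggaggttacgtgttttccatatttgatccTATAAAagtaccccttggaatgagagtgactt
Myh2: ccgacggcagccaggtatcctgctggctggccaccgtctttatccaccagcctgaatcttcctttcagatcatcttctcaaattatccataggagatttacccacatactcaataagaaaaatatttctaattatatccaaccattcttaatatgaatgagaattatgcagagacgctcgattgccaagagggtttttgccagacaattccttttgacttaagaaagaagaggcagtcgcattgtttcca
Myh4: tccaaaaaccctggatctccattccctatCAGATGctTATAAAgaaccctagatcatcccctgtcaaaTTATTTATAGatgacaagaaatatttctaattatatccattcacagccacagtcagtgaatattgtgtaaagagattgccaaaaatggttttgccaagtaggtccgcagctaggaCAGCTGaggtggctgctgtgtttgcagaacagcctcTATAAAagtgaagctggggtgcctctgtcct
TATAAA began 32 bases before the start of Myh1 and 31 before that of Myh4, and a MEF2 motif, which overlapped another TATAAA, lay 211 and 182 bases before these starts. The Myh2 window held 0 matches to TATAAA and 0 to MEF2. The E-box letters occurred 2 times in the Myh4 window and 0 times in the other windows. Over 32851 mouse promoter windows of this length, 12.4% held TATAAA, 66.2% an E-box and 2.92% a MEF2 motif. These matches describe the letters in the window only.

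The same rule in the MTI library, with the limits on mitochondrial and ribosomal UMIs that the study used there, chose 28 of 1127 filtered nuclei (2.48%, 1.66 to 3.57%). They held a median of 766 UMIs, against 2406 in the other nuclei of that library. The pooled six-gene share of those other nuclei was 0.719%, against 3.21% in the other nuclei at day 1. The ratios of the 2 libraries thus rest on unlike comparison groups. Within it, 1935 of 12740 genes (15.2%) were higher and 6680 (52.4%) lower in the chosen nuclei, with a median ratio of 0.423. All 38 sarcomere genes were measured and 37 were higher (median ratio 7.50), as were 21 of 23 calcium genes (median ratio 6.82). Xirp2 and Trim63 had ratios of 9.31 (7.13 to 12.0) and 13.9 (9.75 to 19.5) there. The immune list had 6 UMIs in the 28 nuclei, a ratio of 0.0283 (0.0104 to 0.0617). Without the 14 shared barcodes, 1951 genes were higher and the sarcomere median was 7.99, while the ratio of Xirp2 was 6.13 and that of Trim63 17.2. All 37 Myh2 UMIs of the 28 nuclei lay in the shared barcodes. Whether these ratios differ from those of day 1 was not tested.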

How the data were processed

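The authors deposited a gene-by-barcode matrix of UMI counts for each library (Cell Ranger 7.0.1 per the file headers, with mm10 among the builds in the submitters' processing notes), not normalized. A protocol in the labels names a human reference, but the gene IDs are mouse. Totals were 9389014 UMIs at day 1 and 5899407 in the MTI library. Filters followed the study's methods. The members and gene lists were chosen with earlier results of these data known. Counts were summed over barcodes per group and divided by UMIs outside the 6 rule genes. Ratios carried conditional binomial intervals, levels exact Poisson intervals and shares Clopper-Pearson intervals, all at 95%. Over other nuclei, genes with at least 20 UMIs in both groups together were counted as measured. Over the shallow barcodes the minimum was stricter. None of the 3 osteoclast genes, with 155 UMIs in the shallow barcodes, was counted as measured there. Named genes were the 6 rule genes, up to 5 with the most UMIs per list, the 15 largest and 10 smallest ratios in each comparison (among genes with at least 50 UMIs in both groups over other nuclei and, over shallow barcodes, at least 20 in the chosen nuclei or 500 in the shallow barcodes) and the 15 with the most UMIs. Genes that a count singles out, such as Casq2, Sntb1, Myc, Calcr, Megf10, Mb, Chrna1, Pax7, Xirp1, Emcn, Esrrg, Myh3, Myh7 and Myh8, were also named, after their values were seen, and a few genes that the rule names are not reported here. Alternatives changed the share, the filters, the rule genes, the totals, the scaling, the minimum UMIs, the fold and the comparison groups. Gene lengths came from GENCODE (GRCm38), in which 32158 of 32285 genes had a position. Scripts (Python 3.11.15, numpy 2.4.6, scipy 1.17.1, pandas 2.3.3) were tested on simulated data.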

Additional observations from a re-analysis of the deposited data

Results flagged for a closer look

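RNA of the 6 genes was also high in barcodes that the rule did not choose. Among the barcodes with under 200 genes, 3888 had at least 20% of their UMIs on the 6 genes, more than the 510 muscle fibre nuclei. A further 172 barcodes with 200 to 5000 genes reached the 8% share and were left out by the limit on mitochondrial UMIs, with a median mitochondrial share of 0.751% and a lowest of 0.501%. Their six-gene share had a median of 9.36%, and Neat1 stood at 4988 CPM in them against 5755 in the muscle fibre nuclei.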

How the results depend on the processing

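Of 182 values under alternative settings, 118 stayed close to the reported value. Close meant within 1.5 times it for counts and within its counting interval for shares and the immune ratio. For the sarcomere medians it meant the relative interval of the summed ratio, placed around the median. A reversal was looked for only in these medians (19 and 20 alternatives), and 0 reversed. For the values below that moved, the cause was not tested. The number of muscle fibre nuclei was 835 at a share of 6%, 307 at 10%, 57 at 16%, 218 with at least 300 genes and 43 with at least 500. Genes higher than in other nuclei (416) numbered 1203 at a share of 16%, 263 with totals of all UMIs, 126 with median-of-ratios scaling, 712 with at least 10 UMIs per gene, 200 with at least 50, 704 against other nuclei under 4% only and 1308 at a fold of 1.5. Genes lower than in other nuclei (1747) numbered 3823 at 16%, 481 with at least 500 genes, 3239 with mitochondrial UMIs under 5%, 2648 with median-of-ratios scaling, 3454 and 582 with at least 10 and 50 UMIs per gene, and 2796 at a fold of 1.5. Genes higher than in shallow barcodes (424) numbered 155 at 16%, 252 with at least 500 genes, 138 with median-of-ratios scaling, 641 and 246 with at least 10 and 50 UMIs, and 1064 at a fold of 1.5. Genes lower than in shallow barcodes (430) numbered 38 at 16%, 88 with at least 500 genes, 253 without Ttn and Neb in the rule (with the threshold lowered to 0.346% there and below), 1071 with median-of-ratios scaling, 885 and 142 with at least 10 and 50 UMIs, and 867 at a fold of 1.5. The sarcomere median over other nuclei (2.06) was 2.27 at 6%, 2.18 at 16%, 2.15 with at least 300 genes, 3.12 with at least 500, 2.23 with mitochondrial UMIs under 5%, 1.96 without Ttn and Neb, 1.87 with totals of all UMIs, 1.62 with median-of-ratios scaling, 2.16 without the deepest 5% of nuclei and 3.01 against other nuclei under 4%. Over shallow barcodes (2.09) it was 2.01 at 6%, 2.32 at 10%, 3.62 at 16%, 2.32 with at least 300 genes, 2.42 with at least 500, 1.98 with mitochondrial UMIs under 5%, 1.92 with totals of all UMIs, 1.57 with median-of-ratios scaling, 2.29 with at least 50 UMIs per gene and 1.75 with nuclei weighted equally. At a share of 16% the Myh1, Myh4 and Myh2 classes took 39.5, 7.89 and 18.4%; with at least 500 genes Myh4 took 36% and Myh2 0%, and without Ttn and Neb Myh2 took 3.52%. Settings chosen after seeing the data were leaving out the nuclei rich in Gm10800 and Gm10801 (208 higher and 764 lower genes, sarcomere median 1.69, over other nuclei), leaving out the 28 nuclei of 20% and over (Ttn 85.4% of the UMIs of the 6 genes), leaving out the barcodes found in both libraries (Ttn 85.3%), and keeping only shallow barcodes under 8% (sarcomere median 2.66). The immune ratio over shallow barcodes stayed between 0.439 and 0.498 over the 4 alternatives run. A median depth of 476 UMIs leaves most single genes at 0 or 1 UMI in a nucleus. No paired analysis was possible because each condition had 1 library and no test was made.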

Other observations

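Nuclei with many Xirp2 UMIs were picked after their values were seen. In 13 filtered nuclei Xirp2 had at least 15 UMIs, and 0 of these were muscle fibre nuclei, with six-gene shares of 1.02 to 7.71%. Xirp2 stood at 35708 CPM in them. Nrap, a protein of the myotendinous and Z-disc region, stood at 3475 against 1015 in the muscle fibre nuclei, Flnc at 2693 against 637 and Trim63 at 1564 against 370.2. Dmd stood lower, at 4952 against 12529. The 13 nuclei had a median six-gene share of 3.83%, and Dmd stood at 4939 in all filtered nuclei with a share of 2 to 4%.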
